A study of Homo sapiens with 5 samples.

Results

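The ERBB receptors and the EGF-family ligands that bind them were followed in MDA-MB-231 cells, a human breast cancer cell line, after exposure to SAHA. SAHA (suberoylanilide hydroxamic acid, vorinostat) inhibits histone deacetylases, the enzymes that take acetyl groups off histones and other proteins. The members were the 4 receptors EGFR, ERBB2, ERBB3 and ERBB4 and the 6 ligands AREG, EREG, HBEGF, TGFA, BTC and NRG1. Every probe set that the platform annotation pairs with 1 of these symbols was used, which gave 38 of the 54613 probe sets that are not array controls. They stood for 9 of the 10 genes, and AREG was not analysed here. One group was 3 arrays of cells given the vehicle DMSO (DMSO 1 to 3) and the other was 2 arrays of cells given 2 uM SAHA (SAHA 1 and SAHA 2). All cells were the unmodified line in the same medium, collected after 30 h per the labels. The labels' extraction text also speaks of a transfection that no other label describes. Nothing in the labels says whether replicates were separate cultures, so p-values measure the spread between these arrays only, which may be technical.

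ERBB receptors are tyrosine kinases of the cell surface that pair up when a ligand binds, phosphorylate each other's tails and start RAS-ERK and PI3K-AKT signalling. ERBB2 has no known soluble ligand of its own and ERBB3 has little kinase activity, so both work mainly in pairs with other members. The ligands are made as membrane precursors that metalloproteases cut free. EGFR is abundant in many breast cancers that lack the oestrogen receptor, the class MDA-MB-231 belongs to, whereas ERBB2 is the amplified receptor of another class.

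Values are log2 of the deposited RMA intensities, in which background was corrected and the arrays were given nearly the same distribution. Median intensity per array ran from 88.8 to 91.2. A log2 fold is the SAHA mean minus the DMSO mean, and a probe set was called when limma's p, adjusted by the Benjamini-Hochberg method over all 54613 probe sets, was below 0.05. The control probe sets for actin set DMSO 1 apart, with a 3' minus 5' difference of 3.29 on the log2 scale against 2.04 to 2.22 on the other arrays. The polyadenylated control RNAs read higher in SAHA by a median of 0.39 on the log2 scale, and centring each array on them moved the median log2 fold of all probe sets from -0.03 to -0.40. In such bulk RNA, fewer cells with a transcript and less of it per cell cannot be told apart.

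Most defining markers of the line were bright. VIM, CD44, MSN, CAV1, AXL and ZEB1, genes of its mesenchymal state, read between 11.01 and 14.03 on all arrays, while SPARC read 6.13 to 6.16. ESR1, PGR and FOXA1, the hormone receptors and pioneer factor of luminal cells, read at most 7.04. Other luminal genes were bright, with GATA3 at 9.15 to 9.49, EPCAM at 9.44 to 10.42 and the keratins KRT8, KRT18 and KRT19 at 11.30 to 13.81, and CDH1 read 4.48 to 4.78 in DMSO and 6.12 to 6.49 in SAHA. Of 9 luminal markers CDH1 (1.64) and KRT19 (0.94) rose and EPCAM (-0.72) and GATA3 (-0.26) fell, with summed intensities of 19574 to 21144 in DMSO and 23988 to 27011 in SAHA. Of 7 markers of the line MSN (-0.37) and AXL (-0.33) fell, and the sum was 58263 to 58720 in DMSO and 49509 to 53954 in SAHA. Of 4 leukocyte markers measured, CD14 rose (0.87) and PTPRC fell (-0.34), and their summed intensity was 337 to 363 in DMSO and 428 to 435 in SAHA. Of 5 endothelial markers, KDR rose (1.14), and the sum was 422 to 462 in DMSO and 553 to 561 in SAHA. The leukocyte marker PTPRC read 3.41 to 3.87, and CD3E, CD14 and ITGAM read 6.32 to 7.82. The endothelial marker CDH5 read 3.88 to 4.04, and PECAM1, VWF, KDR and TEK read 6.01 to 7.67. The part of these marker shifts in the results was not tested.

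After SAHA, the receptors EGFR and ERBB3 and the ligands EREG and HBEGF rose, while ERBB2 and the ligand BTC fell. EREG had the largest change, 5.22-fold higher, followed by ERBB3 at about 3-fold (3.06 and 2.96 by its 2 called probe sets). HBEGF rose 1.76- and 1.78-fold and EGFR 1.58- and 1.57-fold, while BTC fell 1.85-fold and ERBB2 1.56-fold. TGFA, NRG1 and ERBB4 had no probe set past the threshold. In probe sets, 7 of the 38 were called higher and 2 lower, where 18.1% of all probe sets were called, 9.01% higher and 9.05% lower. Without SAHA 1 the counts were 4 higher and 1 lower (TGFA 205016_at), and without SAHA 2 they were 5 higher and 1 lower (NRG1 208231_at). Among those called without SAHA 2, EREG 1569583_at and NRG1 208231_at had equal values on all 3 DMSO arrays, so no spread was left to measure. Without a DMSO array 7 were still higher, and lower were ERBB2 alone without DMSO 1 and none without DMSO 2 or DMSO 3 (3 and 2 at an unadjusted p under 0.05 by limma). The brightest probe set of a gene was the 1 with the highest mean over all 5 arrays, SAHA arrays included. At the brightest probe set of each gene, 4 of 9 member genes rose and 2 fell, beside 14.0% and 15.6% of the 19775 genes tested. For ERBB3, counted among those that rose, a probe set that did not rise was brighter in DMSO alone. Of the 2 that fell, 1 was called without DMSO 2 or DMSO 3 and 0 without SAHA 2 (2 at an unadjusted p under 0.05 by limma). Both SAHA arrays lay above all DMSO arrays for 9 member probe sets and below for 8, an arrangement seen in 39.2% of all probe sets. The median log2 fold of the 38 was -0.03, the same to 2 decimals as that of all probe sets. Centring arrays on the polyadenylated controls moved the called log2 folds by over 1.5 times for EGFR (0.29 and 0.28) and ERBB2 (-1.01). It did so too for HBEGF 203821_at and 38037_at (0.44 and 0.46). All 9 stayed called, but 43807 of all probe sets were called with that centre, 40982 of them lower. The 2 kept lower calls therefore say little. Higher calls among all probe sets were fewer, 2825 against 4922 as reported. Limma's prior degrees of freedom were 26.6 against 1.39, so p-values of the 2 fits are not alike.

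**Figure D1:**
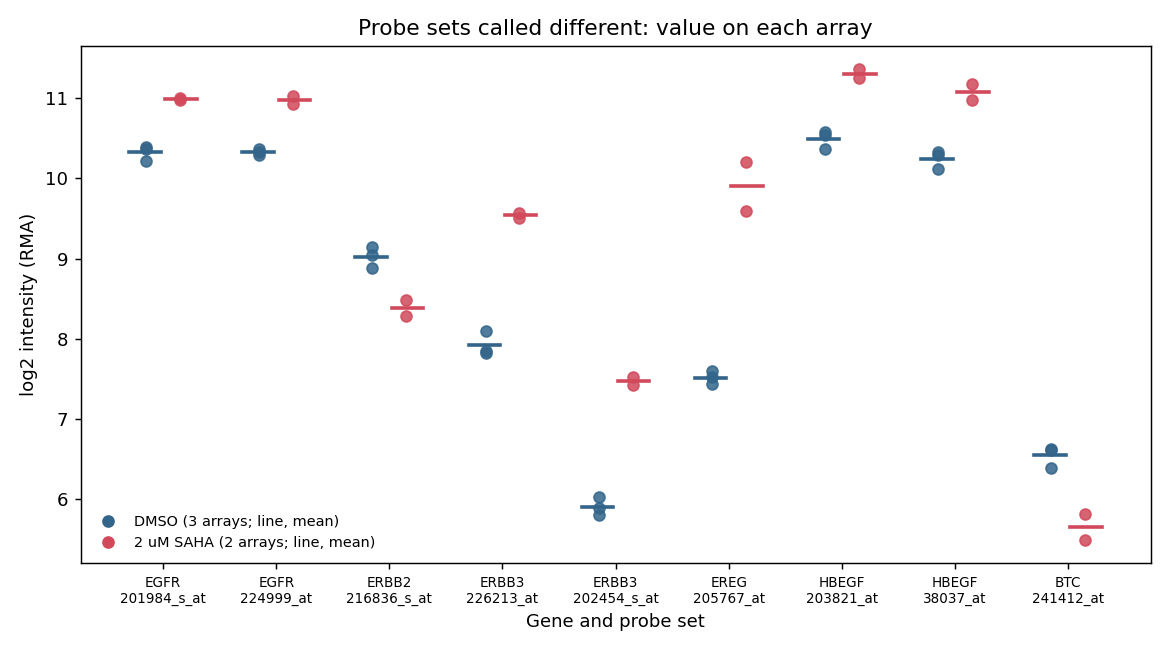
Log2 RMA intensity (vertical axis) of the 9 called member probe sets (horizontal axis) on each array. Points are arrays (blue, 3 DMSO; red, 2 SAHA), and short lines are group means. The 2 SAHA points of EREG lie at 9.60 and 10.20, above the DMSO points at 7.43 to 7.60, and in no column do the groups overlap.

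The promoters of EREG, HBEGF and EGFR, 3 of the 4 genes that rose, and of BTC, the gene that fell most, are shown because these genes carry the changes described below. ERBB3 had no window among those matched. Each is the 250 bases before the RefSeq start on GRCh38.p14, 5' to 3' on the gene's strand (for EGFR, the more upstream of 2 RefSeq starts). Capitals mark every match, on both strands, to the GC box GGGCGG, the AP-1 site TGANTCA, the E-box CACGTG, the cyclic AMP element TGACGTCA, the TATA box TATAAA or the NF-kB site.
EREG, chr4:74364895-74365144, plus strand: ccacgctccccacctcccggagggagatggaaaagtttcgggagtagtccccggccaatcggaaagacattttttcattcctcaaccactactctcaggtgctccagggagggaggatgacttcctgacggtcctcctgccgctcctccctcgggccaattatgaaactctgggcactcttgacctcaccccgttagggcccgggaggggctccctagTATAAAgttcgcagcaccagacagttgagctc
HBEGF, chr5:140346604-140346853, minus strand: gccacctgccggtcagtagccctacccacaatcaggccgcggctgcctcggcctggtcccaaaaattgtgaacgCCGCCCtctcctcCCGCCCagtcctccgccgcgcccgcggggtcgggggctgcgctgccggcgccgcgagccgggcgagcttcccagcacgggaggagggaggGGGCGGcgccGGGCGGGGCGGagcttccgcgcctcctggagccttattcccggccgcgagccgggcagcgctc
EGFR, chr7:55018767-55019016, plus strand: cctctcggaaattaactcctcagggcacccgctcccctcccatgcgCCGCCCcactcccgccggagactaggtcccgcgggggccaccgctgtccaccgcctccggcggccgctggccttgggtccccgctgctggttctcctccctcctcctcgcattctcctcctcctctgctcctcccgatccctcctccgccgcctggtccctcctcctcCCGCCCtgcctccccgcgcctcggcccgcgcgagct
BTC, chr4:74794524-74794773, minus strand: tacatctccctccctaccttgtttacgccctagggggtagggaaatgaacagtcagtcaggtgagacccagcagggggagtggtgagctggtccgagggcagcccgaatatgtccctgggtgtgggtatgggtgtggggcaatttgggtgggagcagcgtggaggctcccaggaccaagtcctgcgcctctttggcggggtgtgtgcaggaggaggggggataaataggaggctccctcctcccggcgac
HBEGF held 5 GC boxes and EGFR 2, and 42.6% of 35116 RefSeq promoter windows of this length held at least 1. EREG held a TATA box starting 32 bases before the start, as 10.7% of windows held at least 1 anywhere. BTC held none of the 6 motifs. The AP-1 site, E-box, cyclic AMP element and NF-kB site were present in 6.57%, 6.34%, 1.65% and 0.527% of windows and in none of these 4. GC content was 73.6% in EGFR, 76.4% in HBEGF, 58% in EREG and 62% in BTC, against a median of 58% over all windows. At the second EGFR start, not shown, the window held 2 AP-1 sites and 2 TATA boxes and no GC box. That of ERBB2, which fell, held 1 AP-1 site. A match is a description of letters only.

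EGFR, the founding receptor, which binds EREG, HBEGF, TGFA and BTC, was read by 9 probe sets that did not give 1 answer. The brightest, 201984_s_at, read 10.37, 10.21 and 10.39 in DMSO 1 to 3 and 10.98 and 11.00 in SAHA 1 and 2. Its log2 fold was 0.66 (SE 0.07; adjusted p = 0.0073, limma). Nearly the same came from 224999_at, with 10.29, 10.32 and 10.36 in DMSO and 11.03 and 10.92 in SAHA, a log2 fold of 0.65 (SE 0.05; adjusted p = 0.00395, limma). In both, each SAHA array lay above each DMSO array. The call of 201984_s_at ended without SAHA 1 or SAHA 2 (adjusted p = 0.0665 and 0.059, limma), and 224999_at kept its call with each array left out. The difference between their log2 folds was -0.01 (95% interval -0.27 to 0.25).

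The third-brightest EGFR probe set, 201983_s_at, gave the largest EGFR fold and missed the threshold. It read 8.53, 8.04 and 7.48 in DMSO and 9.32 and 9.69 in SAHA, so the groups did not overlap but the DMSO arrays spread widely (SD 0.53, n = 3, against 0.10 for 201984_s_at). Its log2 fold was 1.49 (SE 0.34, 95% interval 0.57 to 2.41; adjusted p = 0.054, limma). It passed with quantile normalization run again (0.0231), with centring on ribosomal protein genes (0.0172) or on the polyadenylated controls (3.12e-05), and without dim probe sets (0.026). With the polyadenylated controls as centre its log2 fold was smaller, 1.12. Limma's prior degrees of freedom were then 26.6 against 1.39, so the lower p does not show a larger change. Its log2 fold exceeded that of 201984_s_at by 0.83 (95% interval 0.17 to 1.48), which did not pass after adjustment over all probe set pairs (limma adjusted p = 0.0855).

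The other 6 EGFR probe sets were dimmer, and none was called. They were 210984_x_at (log2 fold -0.03), 1565483_at (-0.24), 1565484_x_at (-0.38), 211607_x_at (0.06), 211550_at (-0.03) and 211551_at (-0.01). Their means lay between the 42.7th and 56.1st percentile of all probe sets, against the 91.8th for 201984_s_at. In each of these 6 the SAHA and DMSO arrays overlapped. The lowest value of 1565484_x_at was SAHA 1 at 6.04, while SAHA 2 at 6.61 equalled DMSO 2.

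ERBB3, the receptor for neuregulins that passes on signals mainly through PI3K, split its 5 probe sets into 2 that rose and 3 that stayed near 0. The brightest, 226213_at, read 8.10, 7.85 and 7.83 in DMSO and 9.51 and 9.57 in SAHA, a log2 fold of 1.61 (SE 0.10; adjusted p = 0.00252, limma). Probe set 202454_s_at read 6.02, 5.89 and 5.80 in DMSO and 7.43 and 7.52 in SAHA, a log2 fold of 1.57 (SE 0.08; adjusted p = 0.00198, limma). The SAHA arrays lay over 1 log2 unit above the highest DMSO array in both. Their log2 folds differed by -0.05 (95% interval -0.28 to 0.18). In contrast 1563253_s_at, 1563252_at and 215638_at gave log2 folds of -0.02, -0.05 and -0.07, with the groups overlapping. Their DMSO means were 8.05, 7.21 and 5.20, so 1563253_s_at was brighter in DMSO than 226213_at (7.93).

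ERBB2, the receptor that is amplified in another class of breast cancer, fell by its brightest probe set. Probe set 216836_s_at read 8.88, 9.05 and 9.14 in DMSO and 8.29 and 8.48 in SAHA, both SAHA arrays lying below all DMSO arrays. The log2 fold was -0.64 (SE 0.11; adjusted p = 0.0229, limma), and the call ended without DMSO 2, DMSO 3, SAHA 1 or SAHA 2 (limma adjusted p = 0.107, 0.0874, 0.13 and 0.0721). Its other probe sets, 234354_x_at (-0.20) and 210930_s_at (-0.23), were not called and read between 5.02 and 5.57 on all arrays. All 3 ERBB2 probe sets have names ending in _s_at or _x_at, which marks probes that can match several transcripts.

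ERBB4, the other neuregulin receptor with an active kinase, read dimly and was not called. Its 4 probe sets lay between the 13.2nd and 36.1st percentile of level. Probe set 206794_at read 5.86, 5.77 and 6.11 in DMSO and 5.72 and 5.44 in SAHA, a log2 fold of -0.33 (95% interval -0.72 to 0.05). The other 3, 233498_at, 214053_at and 233494_at, had log2 folds of 0.01, 0.01 and 0.05. Detection calls were not used here, and whether these levels exceed background is unknown.

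**Figure D2:**
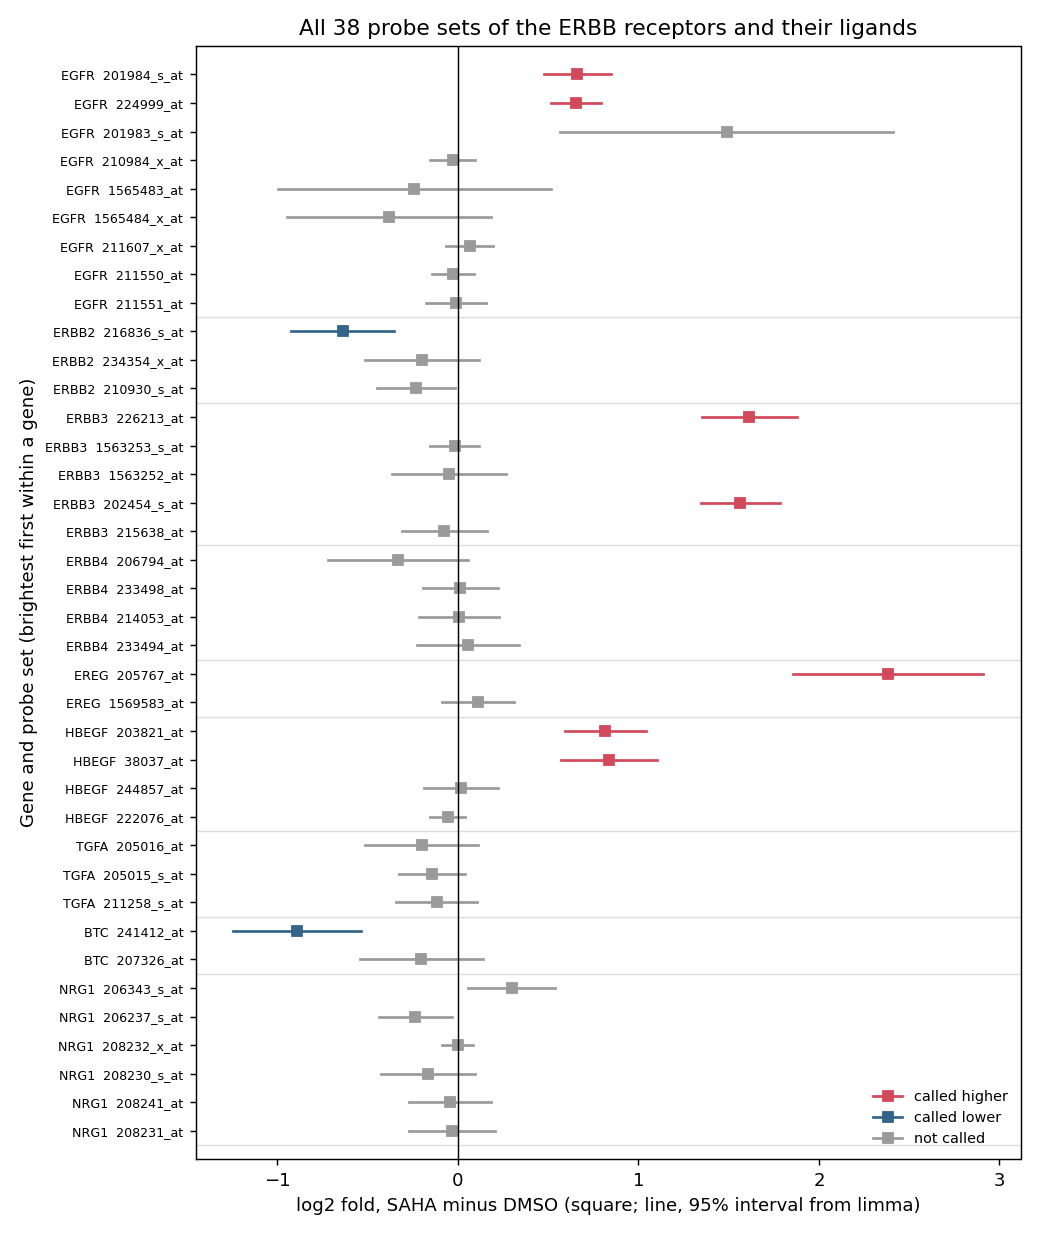
Log2 fold, SAHA minus DMSO (horizontal axis), of all 38 member probe sets (vertical axis), brightest first within each gene. Squares are log2 folds and lines their 95% intervals from limma, in red where called higher, blue where called lower and grey where not called. ERBB3 has 2 squares near 1.6 and 3 near 0, and EGFR runs from -0.38 to 1.49.

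EREG (epiregulin), a ligand of EGFR and ERBB4, was the most changed member. Probe set 205767_at read 7.52, 7.60 and 7.43 in DMSO and 10.20 and 9.60 in SAHA. Both SAHA arrays stood about 2 log2 units or more above the DMSO arrays, and SAHA 1 was the higher of them. The log2 fold was 2.38 (SE 0.20, 95% interval 1.86 to 2.91; adjusted p = 0.00425, limma), at the 99.8th percentile of all log2 folds. It was 2.08 without SAHA 1 and 2.69 without SAHA 2. The other EREG probe set, 1569583_at, read 6.51 on 4 arrays and 6.73 on SAHA 1 and was not called (log2 fold 0.11). It passed without SAHA 2 (log2 fold 0.22), where SAHA 1 is the only SAHA array. Its 3 DMSO values were equal (SD 0), so that fit had no spread between arrays to measure for this probe set.

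HBEGF, a heparin-binding ligand of EGFR and ERBB4, rose by both of its bright probe sets. Probe set 203821_at read 10.54, 10.36 and 10.57 in DMSO and 11.26 and 11.36 in SAHA, a log2 fold of 0.82 (SE 0.08; adjusted p = 0.00668, limma). Probe set 38037_at read 10.29, 10.12 and 10.33 in DMSO and 10.98 and 11.18 in SAHA, a log2 fold of 0.84 (SE 0.10; adjusted p = 0.00965, limma). The groups did not overlap in either, and the log2 folds differed by 0.02 (95% interval -0.21 to 0.25). Without SAHA 1 or SAHA 2 both probe sets missed the threshold (limma adjusted p = 0.0575 and 0.0561 for 203821_at, 0.0525 and 0.059 for 38037_at). The dim probe sets 244857_at and 222076_at gave 0.02 and -0.06.

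BTC (betacellulin), a further ligand of EGFR and ERBB4, fell from a dim level. Probe set 241412_at read 6.62, 6.63 and 6.39 in DMSO and 5.82 and 5.50 in SAHA, with no overlap. The log2 fold was -0.89 (SE 0.13; adjusted p = 0.0168, limma). Its mean lay at the 44th percentile of level, and leaving out any 1 of the 5 arrays ended the call (adjusted p = 0.0539 to 0.085, limma). The second probe set, 207326_at, read 4.70, 4.70 and 5.04 in DMSO and 4.66 and 4.57 in SAHA and was not called (-0.20).

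TGFA, the EGFR ligand made by many carcinomas, was bright and was not called. Probe set 205016_at read 11.21, 11.21 and 11.27 in DMSO, 11.21 in SAHA 1 and 10.86 in SAHA 2, so only SAHA 2 stood apart. The log2 fold was -0.20 (95% interval -0.51 to 0.11), and without SAHA 1 it was -0.38 (limma adjusted p = 0.045). The dimmer 205015_s_at (-0.14) and 211258_s_at (-0.12) were not called either.

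NRG1, the neuregulin that binds ERBB3 and ERBB4 and is spliced into many isoforms, had no called probe set among 6, yet 2 of them differed from each other. The brightest, 206343_s_at, read 11.16, 11.02 and 11.18 in DMSO and 11.52 and 11.31 in SAHA, a log2 fold of 0.30 (95% interval 0.06 to 0.54; limma adjusted p = 0.106). Probe set 206237_s_at read 7.37, 7.23 and 7.44 in DMSO and 7.09 and 7.13 in SAHA, a log2 fold of -0.24 (95% interval -0.44 to -0.03; limma adjusted p = 0.121). In the first the SAHA arrays lay above all DMSO arrays and in the second below them. The difference between the log2 folds was -0.53 (SE 0.11; adjusted p = 0.0161, limma), and it missed the threshold without DMSO 2, DMSO 3 or SAHA 1 (limma adjusted p = 0.0605, 0.0635 and 0.0757). The other 4 were 208232_x_at (0.00, with 7.15 on all 5 arrays), 208230_s_at (-0.17), 208241_at (-0.04) and 208231_at (-0.03).

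Whether probe sets of 1 gene respond differently was tested as the per-array difference between each probe set and the brightest of its gene, fitted over all 21316 such pairs on the array. Of the 29 member pairs 15 differed, where 18.5% of all pairs did, and 6 of the 29 did without SAHA 1. The 15 were 6 of 8 EGFR pairs, 3 of 4 ERBB3 pairs, 2 of 3 HBEGF pairs and 1 each for ERBB2, EREG, BTC and NRG1. For ERBB3 the 3 flat probe sets lay 1.63 to 1.69 below 226213_at in log2 fold (limma adjusted p = 0.000263 to 0.000377). Probe set 226213_at was the brightest only with the SAHA arrays counted. For EREG the difference was -2.27 (SE 0.14; adjusted p = 0.000132, limma). A flat probe set mostly returns the log2 fold of the brightest, here 2.38. The test therefore cannot tell a differing response from a probe set that does not read the transcript. The EGFR differences ran from -1.04 for 1565484_x_at to -0.60 for 211607_x_at (limma adjusted p = 0.00379 to 0.027), and the 2 pairs that missed the threshold were 201983_s_at and 224999_at. The brightest probe set was picked again with each array left out. For EGFR it was then 224999_at without DMSO 1, DMSO 3 or SAHA 2. EGFR pairs with 201984_s_at were therefore followed only without DMSO 2 or SAHA 1. Calls were lost without SAHA 1 for 5 EGFR pairs and HBEGF 244857_at, and for EGFR 1565483_at also without DMSO 2. The ERBB2 pair (234354_x_at, 0.44) kept its call only without DMSO 1, and the BTC pair (0.69) only without DMSO 3, among the 5 arrays left out in turn.

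The answer for a gene depended on how its probe sets were joined. When its 9 probe sets were averaged, EGFR gave a log2 fold of 0.24 (limma adjusted p = 0.102) against 0.66 at its brightest probe set. ERBB3 gave 0.61 (0.00139) against 1.61, EREG 1.25 (0.0023) against 2.38 and HBEGF 0.40 (0.00601) against 0.82. Without probe sets named _s_at or _x_at, EGFR gave 0.65 and ERBB3 1.61, both still called, and ERBB2 had no probe set left.

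Calls among the members went with level, taken as the mean over all 5 arrays. A rise with SAHA lifts that mean, so level and call were not independent. EREG 205767_at and ERBB3 226213_at, both called higher, had DMSO means of 7.52 and 7.93. ERBB3 1563253_s_at had a DMSO mean of 8.05 and lay at the 72.3rd percentile. Of the 10 member probe sets above the 75th percentile of level, 6 were called higher and 1 lower, beside 40.7% called in either direction among all probe sets in that range. Of the 28 below it 1 was called higher (ERBB3 202454_s_at) and 1 lower (BTC 241412_at), beside 10.5% of all. The 3 bright ones not called were EGFR 201983_s_at, TGFA 205016_at and NRG1 206343_s_at. The DMSO mean of EGFR 201983_s_at was 8.02, below that of ERBB3 1563253_s_at. Of the 38, 17 had exactly equal values on at least 2 arrays, as 52.4% of all probe sets did. The annotation ties 12 of the 38 to a RefSeq mRNA of the gene, and 4 of these were called, all higher. Among the 26 tied to another record or none, 3 were called higher and 2 lower. That is 33.3% and 19.2% called, beside 18.1% of all probe sets. The share by type of record among all probe sets was not worked out.

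**Figure D3:**
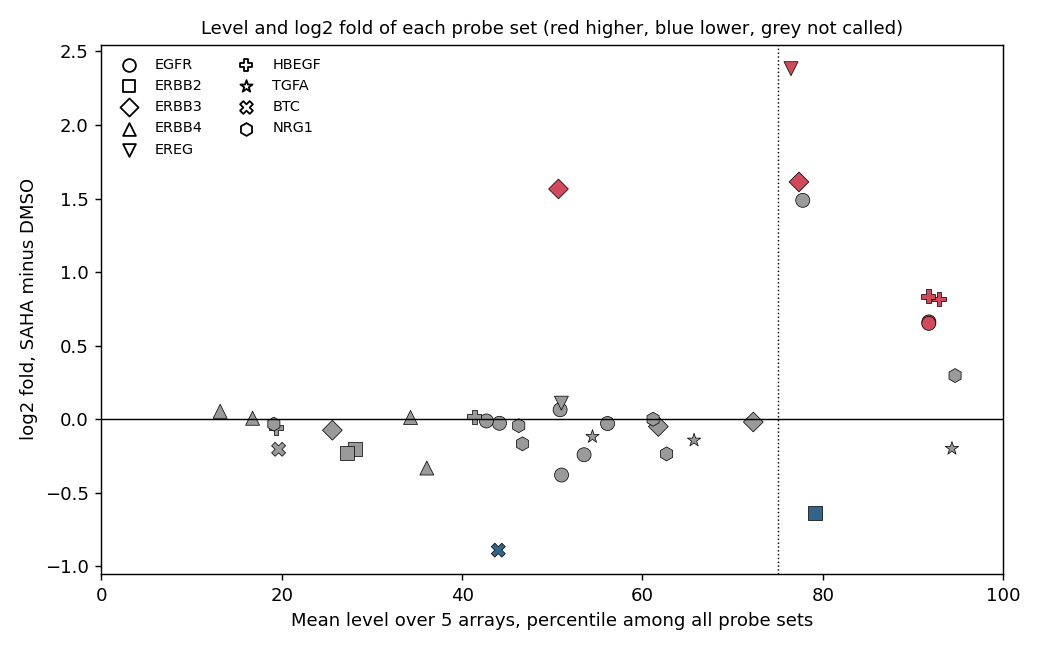
Mean log2 level over 5 arrays as a percentile of all 54613 probe sets (horizontal axis) against log2 fold (vertical axis) for the 38 member probe sets. Symbols are genes, red is called higher, blue called lower and grey not called, and the dotted line marks the 75th percentile. Most points left of the line lie near 0, apart from ERBB3 202454_s_at at 1.57 and BTC 241412_at at -0.89.

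EREG, AREG and BTC are neighbours on chromosome 4 in RefSeq's gene order, which runs CXCL3, CXCL2, MTHFD2L, EPGN, EREG, AREG, BTC, PARM1, RCHY1, THAP6 for protein-coding genes. At their brightest probe sets EREG rose (2.38) and BTC fell (-0.89), while AREG and EPGN were not analysed here. Around them CXCL2 (0.60), PARM1 (0.69) and THAP6 (0.48) rose, and CXCL3 (0.14), MTHFD2L (0.46) and RCHY1 (-0.03) were not called. Of all genes 14.0% were called higher. THAP6 and MTHFD2L lay just either side of the threshold (limma adjusted p = 0.0443 and 0.0505) at like log2 folds. Centring on the polyadenylated controls moved each log2 fold by -0.37, a large part of both. The neighbours were chosen after the values of EREG and BTC were seen.

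The other genes of the pathway were read at the brightest probe set of each, in 8 lists. Of 95 genes 82 were measured, and 15 rose and 8 fell, which is 28.0% beside 29.6% of all genes. Their median log2 fold was -0.01, and that of all genes -0.03. The higher count was 10, 7, 9, 9 and 13 without DMSO 1, DMSO 2, DMSO 3, SAHA 1 and SAHA 2, and the lower count 6, 4, 4, 7 and 4. With arrays centred on the polyadenylated controls 8 were called higher and 50 lower. FRMD8 (0.24), CBLB (0.15) and GRB2 (0.03), described below, were then not called.

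Of 4 other ERBB ligands measured, 1 fell, EGF (-0.82 ± 0.10, SE), the ligand that names the family. NRG2, NRG3 and NRG4 were not called, so 25% of this list was called, beside 29.6% of all genes. Among 9 genes of precursor cleavage 3 rose and none fell by limma's adjusted p, while 2 fell at an unadjusted p under 0.05. The share called was 33.3%, near the 29.6% of all genes. Those that rose were ADAM12 (1.60), a metalloprotease, FRMD8 (0.62), which stabilises the iRhom-ADAM17 complex, and ADAM10 (0.37), the main sheddase of EGF and BTC. ADAM10 was at -0.0023 with the polyadenylated controls as centre. ADAM17, which cuts most other EGFR ligands, was at -0.03. FRMD8 was lost without SAHA 1 or SAHA 2 and ADAM10 without DMSO 1, DMSO 2 or DMSO 3. With probe sets averaged ADAM12 gave 0.55 and FRMD8 0.16.

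Of 15 genes that restrain or turn over the receptors, 4 rose, and 1 fell only at an unadjusted p under 0.05. The share called was 26.7%, near the 29.6% of all genes. PTPN1, the phosphatase PTP1B, which dephosphorylates EGFR, read 10.71 ± 0.13 (SD, n = 3) in DMSO and 12.33 ± 0.12 (SD, n = 2) in SAHA, a log2 fold of 1.62. It gave 0.38 with its probe sets averaged. ERRFI1 (MIG6), a feedback inhibitor of the EGFR kinase, rose by 0.96 (SE 0.05; adjusted p = 0.000816, limma). SOCS5 (0.89), which promotes EGFR breakdown, and CBLB (0.52), a ubiquitin ligase of active receptors, rose too. CBLB missed the threshold without DMSO 2, DMSO 3, SAHA 1 or SAHA 2. LRIG1 (-0.21), CBL (0.30), RNF41 (0.07) and USP8 (-0.12) were not called, and CBL and RNF41 turned negative with the polyadenylated controls as centre.

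Downstream of the receptors few genes passed the test. In the lists that follow, in order, 16.7%, 23.1%, 28.6% and 11.1% were called, beside 29.6% of all genes. Of 12 endocytosis genes EPS15 (0.71) and AP2A1 (0.34, but -0.03 with the polyadenylated controls as centre), both of clathrin-coated pits, rose. Of 13 adaptors and exchange factors GRB2 (0.40), which links receptors to RAS, rose, and VAV2 (-0.42), an exchange factor, and GAB1 (-0.36), a docking protein, fell. Of 7 genes of the RAS-RAF-ERK cascade the scaffold KSR1 rose (0.33, but -0.04 with that centre) and the kinase ARAF fell (-0.36). Of 9 genes of the PI3K-AKT arm AKT1 fell (-0.68). With arrays left out in turn only GAB1 kept its call each time. VAV2 lost it with each of the 5, EPS15 and GRB2 with all but SAHA 2, KSR1 with all but DMSO 3 and ARAF with all but DMSO 1. AP2A1 lost its call without DMSO 2, SAHA 1 or SAHA 2 and AKT1 without SAHA 1. With probe sets averaged GAB1 gave -0.14 and KSR1 0.03, and neither was called.

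Of 13 transcription factors known to act on these receptors and ligands, 4 rose and 3 fell, which is 53.8% beside 29.6% of all genes. The higher count was 2 without any 1 DMSO array and 3 without either SAHA array, and the lower count was 2 without DMSO 1 and 1 without any other array. With the polyadenylated controls as centre 3 were called higher and 7 lower. WT1, a zinc finger factor, rose by 1.59 (SE 0.11; adjusted p = 0.00115, limma) and FOXO1, a forkhead factor held in the cytoplasm by AKT, by 1.41 (SE 0.09; adjusted p = 0.00112, limma). ELF3 (0.73), an epithelial ETS factor, rose, and TFAP2A (-0.57), an AP-2 factor known to bind the ERBB2 promoter, fell. The others, named after their values were seen, were FOXO3 (0.28, but -0.10 with that centre), a forkhead factor like FOXO1, SP1 (-0.37), a factor that binds GC boxes, and TFAP2C (-0.50), another AP-2 factor. FOXO3 was not called with any of the 5 arrays left out, SP1 without SAHA 1 or SAHA 2 and TFAP2C without DMSO 1, DMSO 2 or DMSO 3. ELF3 was not called without DMSO 1, DMSO 2 or DMSO 3, nor TFAP2A without DMSO 2, DMSO 3, SAHA 1 or SAHA 2.

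**Figure D4:**
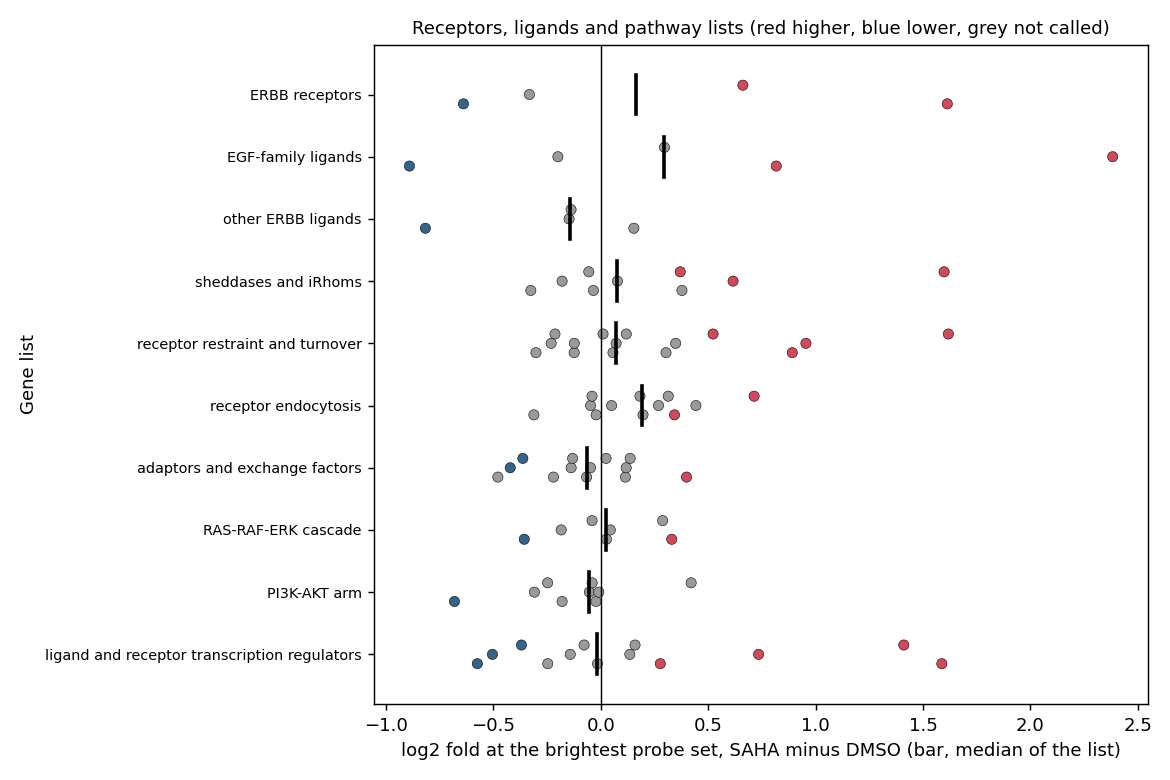
Log2 fold at the brightest probe set (horizontal axis) of the measured genes in the receptor, ligand and 8 pathway lists (vertical axis). Each point is a gene, red where called higher, blue where called lower and grey where not called, and bars are list medians. Medians of the 8 pathway lists lie between -0.14 and 0.19, and EREG at 2.38 is the rightmost point.

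The genes whose values over the 5 arrays lay nearest to those of EREG were RGS7, MAP2 and GDPD1, at distances of 0.25, 0.35 and 0.37 log2 units. The distance was Euclidean, on values minus the DMSO mean, among 4625 genes of like level. For BTC they were CALML4, TSPOAP1 and PYGO1 (0.17, 0.18 and 0.20 among 5843 genes). With 5 arrays in 2 groups this likeness is mostly a like log2 fold.

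**Figure D5:**
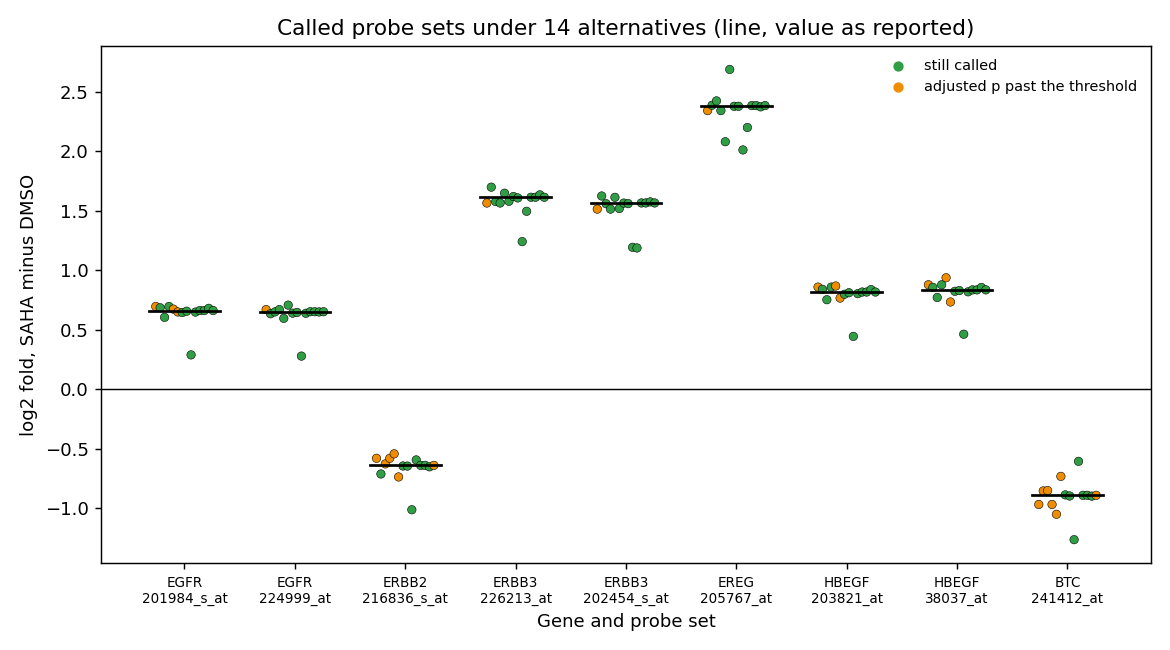
Log2 fold (vertical axis) of the 9 called member probe sets (horizontal axis) under 14 alternatives in processing. Points are alternatives, green where the probe set was still called and orange where its adjusted p was past the threshold, and lines are the values as reported. In no alternative did a point cross 0, and EREG ranged from 2.01 to 2.69.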

How the data were processed

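Total RNA of 5 samples was hybridised to 1 single-colour array each. The deposited values are intensities on a linear scale that the authors made with RMA in R 2.12, per the submitters' processing notes. The genome build was not given in the sources used here. Log2 was taken and nothing was normalized again. Intensities ran from 4.56 to 38935, and the number of arrays limits the precision.

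The groups were compared by lmFit and eBayes of limma 3.58.1 under R 4.3.3 (two-sided, no covariates), once per probe set over 54613 probe sets and per gene over 19775 genes, with Benjamini-Hochberg adjustment. The fit per probe set had 3 residual and 1.39 prior degrees of freedom. Symbols were updated through gene identifiers, and probe sets with several genes or none were named for no gene. Of the 54675 probe sets 41091 had 1 gene symbol, 1801 had several and 62 were controls. The code was tested on simulated data.

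Alternatives were each array left out, the replicate number as a block, a second quantile normalization, centring on polyadenylated control RNAs or on ribosomal protein genes, an offset of 32 before log2, leaving out dim probe sets (mean below the 40th percentile), a variance trend, array weights, an adjusted p under 0.01, and, per gene, averaged probe sets or none named _s_at or _x_at. Files were read with the data.table package, version 1.17.8, and figures drawn with matplotlib 3.10.9.

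The members and lists were chosen with earlier results of these data known. Every member probe set is named, and of the other lists up to 4 called genes with the largest absolute log2 fold, plus the 3 genes nearest in pattern to EREG and to BTC. Named beyond that rule, after their values were seen, were NRG2, NRG3, NRG4, ADAM17, LRIG1, CBL, RNF41, USP8, FOXO3, SP1, TFAP2C and the neighbours on chromosome 4. Probe sequences were not analysed here, nor was the planned look at protein sequences. The promoter windows used came from RefSeq (GRCh38.p14) and covered 8 of the 10 members, without ERBB3 and NRG1.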

Additional observations from a re-analysis of the deposited data

How the results depend on the processing

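All 9 called member probe sets kept their direction under the 14 alternatives, and of 126 comparisons 100 also kept the call. The 100 include all 9 with the polyadenylated controls as centre, where most of all probe sets were called lower. With each array left out, 4 to 7 member probe sets were called higher and 0 to 1 lower (at an unadjusted p under 0.05 by limma, 3 and 2 were lower without DMSO 2 and DMSO 3, where the count was 0). Member genes called lower at the brightest probe set were 0 to 2 (0 without SAHA 2, and 2 at an unadjusted p under 0.05). Of all probe sets 4692 to 7353 were called, 2305 to 3311 higher and 2294 to 4042 lower. Probe set pairs that differed were 6 to 15 among members and 1809 to 2872 among all, and pathway genes called were 7 to 13 higher and 4 to 7 lower. Such fits have fewer degrees of freedom, and with 1 SAHA array it is assumed to vary like the DMSO arrays. The brightest probe set of a gene was picked again in each, so the pairs counted were not all the same.

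With the replicate block, where the replicate number is a term and 1 residual degree of freedom is left, limma called 0 member probe sets higher, 0 lower and 0 of all probe sets in either direction. At an unadjusted p under 0.05 these were 9, 2, 6381 higher and 6580 lower. That fit called 1 member gene lower and 6 pathway genes higher and 3 lower. The numbers are not known to pair the samples. Deviations from group means correlated at 0.09 for number 1 and -0.04 for number 2. The 2 SAHA arrays deviate from their mean as mirror images, so unmatched numbers gave -0.09 and 0.04. These correlations therefore cannot settle whether the numbers pair the samples.

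With centring on the polyadenylated controls 28 member probe sets were called lower, and 43807 of all, 2825 higher and 40982 lower. Member genes lower were then 4, and pathway genes 8 higher and 50 lower. This centring moved each log2 fold by -0.37 (NRG1 208232_x_at from 0.00 to -0.37), so smaller positive log2 folds turned sign, among them NRG1 206343_s_at (-0.08), EREG 1569583_at (-0.26), EGFR 211607_x_at (-0.31), ERBB4 233498_at (-0.36), 214053_at (-0.37) and 233494_at (-0.32), HBEGF 244857_at (-0.36), ADAM10 (-0.0023), AP2A1 (-0.029), KSR1 (-0.042), FOXO3 (-0.095), RNF41 (-0.30), CBL (-0.07) and NRG2 (-0.22). At an adjusted p under 0.01, 0 member probe sets were lower (4 at an unadjusted p under 0.05 by limma), and 4102 of all were called, 2069 higher and 2033 lower. Pairs that differed were then 1749, member genes lower 1, and pathway genes 7 higher and 4 lower. Without dim probe sets 2351 pairs differed. Quantile normalization run again gave 13 pathway genes lower, and leaving out _s_at and _x_at probe sets 1 member gene lower. The causes were not tested.

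No measure of signal over background was at hand, which limits ERBB4, BTC and the dim probe sets of EGFR, ERBB2, ERBB3, EREG, HBEGF and NRG1.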
